A study of Rattus norvegicus with 6 samples.

Results

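Cadherins and other genes that mark the surface epithelium of the ovary were followed across rat ovarian surface epithelial cells that differ in HMGA2 and in RAS transformation. The 6 genes were taken by name from the array's list of 311 features: E-cadherin, P-cadherin, WT1, DOC-2, Megakaryocyte potenciating factor (the array's spelling, a product of the mesothelin gene and called mesothelin from here on) and Basonuclin. All 6 were present and measured on all 6 arrays. In the RefSeq gene table their names correspond to Cdh1, Cdh3, Wt1, Dab2, Msln and Bnc1, where DOC-2 is listed as a synonym of Dab2 and Basonuclin, which carries no number on the array, was taken as Bnc1. Cdh3 and Cdh1 are neighbouring genes on chromosome 19.

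Cadherins are membrane proteins that hold epithelial cells together through calcium-dependent binding between neighbouring cells, with catenins linking them to the actin cytoskeleton. The ovarian surface epithelium is a mesothelium-like sheet over the ovary. It shares markers such as WT1 and mesothelin with other mesothelia and keeps mesenchymal traits in culture. DOC-2, also called Dab2, is often lost in human ovarian carcinoma. HMGA2 is a chromatin protein that binds AT-rich DNA and is abundant in embryonic and transformed cells.

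RNA was measured on 6 spotted 2-colour arrays, each pairing 1 sample with RNA of untreated ROSE199, a line derived from rat ovarian surface epithelium. The groups were ROSE199 stably transfected with an HMGA2 plasmid (2 arrays) and ROSE199 stably transfected with the empty vector (1 array), both in the pEF6 vector under selection with 10 µg/ml blasticidin, and ROSEA25 transfected with siHMGA2 (2 arrays) and ROSEA25 transfected with siEGFP (1 array). The siRNA was used at 0.2 µM in 2 doses 24 h apart and cells were taken 48 h after the first dose. All cells grew in 10% serum, and each labelling used 20 µg of RNA. ROSEA25 was taken as the RAS-transformed derivative of ROSE199 because the treatment protocol speaks of ROSE-RAS cells. No untransfected ROSEA25 sample and no siRNA-treated ROSE199 sample entered the comparisons, so RAS, derivation of the line and transfection with siRNA cannot be told apart in any comparison of ROSEA25 with ROSE199. The paired arrays of a group carried the sample in opposite dyes and were taken as dye swaps of the same RNA, which leaves 1 RNA sample per group and no replicate cultures. The file headers give the HMGA2 arrays a quantification day of their own, so the day cannot be told apart from HMGA2 where these arrays are set against the empty vector. With 1 RNA sample per group, no p-value is given.

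Of the 6 genes, 3 (Wt1, Dab2 and Bnc1) were matched by symbol to a RefSeq promoter window. They are shown because no window was matched for the other members, and were not chosen by their values. WT1, DOC-2 and Basonuclin were also the genes whose HMGA2 differences had opposite signs in the 2 lines on each paired array, after removal of a dye term. A link between that and the windows was not tested. Each window is the 250 bases before the gene's start in RefSeq (build GRCr8), written 5′ to 3′ on the gene's strand: chr3:112021759-112022008 on the plus strand for Wt1, chr2:57272050-57272299 on the plus strand for Dab2, and chr1:145352535-145352784 on the minus strand for Bnc1. Capitals mark matches to motifs searched on both strands. The first was the E-box sequence CAGGTG, which reads CACCTG (its reverse complement) where the match is on the opposite strand. Other E-box sequences were not searched or marked. The second was the GC box GGGCGG, treated in the same way. The third was any run of at least 6 bases that are all A or T. No motif overlapped another in these windows.
Wt1: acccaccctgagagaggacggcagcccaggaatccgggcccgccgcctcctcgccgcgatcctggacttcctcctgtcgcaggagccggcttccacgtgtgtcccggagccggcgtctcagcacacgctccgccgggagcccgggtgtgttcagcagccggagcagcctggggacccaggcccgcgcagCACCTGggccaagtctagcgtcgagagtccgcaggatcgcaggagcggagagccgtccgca
Dab2: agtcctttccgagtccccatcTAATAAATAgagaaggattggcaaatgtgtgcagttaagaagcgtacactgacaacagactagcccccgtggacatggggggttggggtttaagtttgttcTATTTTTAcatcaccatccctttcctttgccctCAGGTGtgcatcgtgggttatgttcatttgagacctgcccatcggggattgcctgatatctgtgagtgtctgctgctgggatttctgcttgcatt
Bnc1: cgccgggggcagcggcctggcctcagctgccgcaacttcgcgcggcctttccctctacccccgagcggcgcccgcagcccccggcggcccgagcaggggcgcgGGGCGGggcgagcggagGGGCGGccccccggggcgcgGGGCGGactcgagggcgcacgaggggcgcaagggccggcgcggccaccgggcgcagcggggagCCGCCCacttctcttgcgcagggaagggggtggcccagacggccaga
The searched E-box sequence occurred once before Wt1, 61 bases from the start, and once before Dab2, 95 bases from it. Of the 33469 promoter windows of this length, 15.9% held it. Bnc1 had 4 matches to the GC box, which 30.5% of windows held at least once. AT runs were found only in the Dab2 window among these 3, at 2 places, and 68.6% of all windows had at least 1. The Bnc1 window was 82.0% G or C and the Wt1 window 71.6%, above the 51.2% median of all windows, and the Dab2 window was 47.6%. These matches are letters in a window and say nothing of which factor binds there.

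HMGI-C, the array's name for the targeted gene HMGA2, had log2 ratios against ROSE199 of 3.70 and 3.33 on the HMGA2 arrays and 0.26 on the empty-vector array, and of 1.20 and 1.59 on the siHMGA2 arrays and 2.40 on the siEGFP array. Its siHMGA2 minus siEGFP difference of -1.01 ranged from -1.29 to -0.15 over 18 processing alternatives and passed in 11 of them, and without siHMGA2 replicate 1 it was -0.44. Among the 11, those that reduce to siHMGA2 replicate 1 minus siEGFP share 1 value, -1.20. K-ras lay at 4.82 and 4.60 on the siHMGA2 arrays and at 4.25 on the siEGFP array. The siHMGA2 arrays were the dimmest: the median net signal over spots was 541.5 and 723.5 in the sample channel, against 1187 to 1953 on the other 4 arrays. Pairs of arrays in opposite dyes differed by a median of 0.27 per feature for siHMGA2 and 0.17 for HMGA2 on the log2 scale. A list of leukocyte markers could not be checked, with 0 of its 3 names on the array.

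Each gene was printed as 4 or 5 spots, and a value per array is the mean log2 ratio, sample over ROSE199, of its acceptable spots. Each of the 6 genes exceeded the limit set by blank spots (their mean plus 3 SD) in both channels on all 6 arrays. The weakest were E-cadherin in siHMGA2 replicate 2, whose sample signal was 1.58 times that limit, and Basonuclin on the same array at 2.07 times. Mesothelin was bright throughout, with a sample signal of at least 13.5 times the limit. HMGI-C was dim in the ROSE199 channel, which is the base of its ratios. Its signal there was 1.90 and 1.08 times the limit on siHMGA2 replicates 1 and 2. It was 2.10 times on the siEGFP array, 1.61 on the empty-vector array, and 2.70 and 4.08 on the HMGA2 arrays. The plot of spot ratios shows how far the single spots of a gene agreed on each array.

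**Figure D1:**
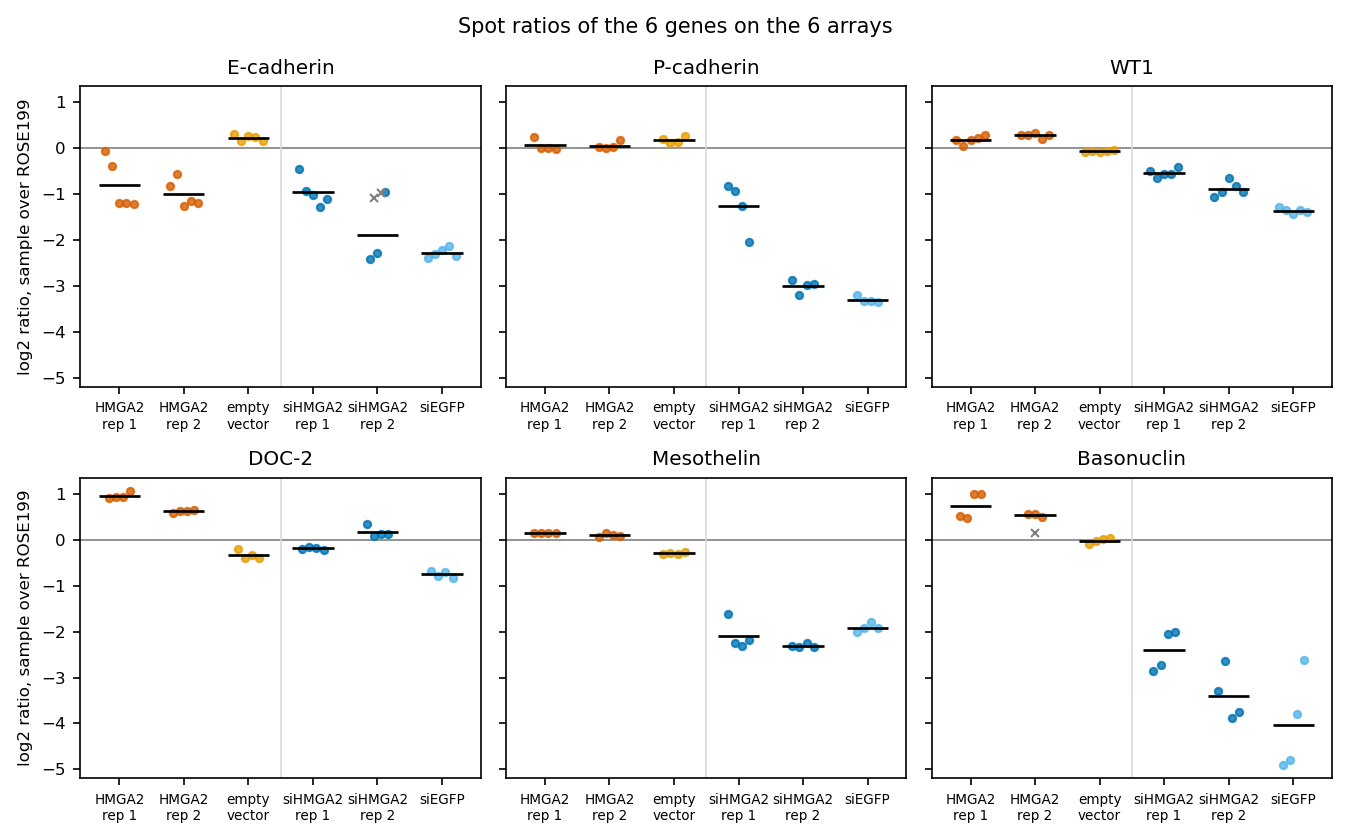
Log2 ratio of each spot (vertical axis, sample over ROSE199) for the 6 genes on the 6 arrays (horizontal axis); bars are the means used, crosses are spots marked poor and left out. On the ROSEA25 arrays every used spot of E-cadherin, P-cadherin, WT1, mesothelin and Basonuclin is below 0, and Basonuclin spots on the siEGFP array spread from -4.90 to -2.63.

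In RAS-transformed ROSEA25 cells with control siRNA, 5 of the 6 genes fell relative to ROSE199. Basonuclin, a zinc-finger protein of proliferating basal epithelial cells, was 20.1-fold lower and P-cadherin, a cadherin of mesothelia and basal epithelia, 13.3-fold lower. E-cadherin, the main adhesion protein of epithelial junctions, was 5.86-fold lower. Mesothelin, a glycoprotein on the surface of mesothelial cells, was 3.94-fold lower and WT1, a transcription factor of the gonadal ridge and mesothelia, 2.67-fold lower. DOC-2, an endocytic adaptor protein, did not pass.

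A gene passed where the fitted log2 difference was at least 1 in size, exceeded 2 pooled standard errors and had the same sign when only arrays with the sample in Cy5 were used. By that rule 15.4% of the 311 features were lower and 11.3% higher in siEGFP-treated ROSEA25 cells than in ROSE199, beside the 5 of 6 members that were lower. The members' median difference was -2.26, against -0.02 over all features. The pooled standard error of this comparison was 0.19, which covers labelling and hybridization only.

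On the siEGFP array E-cadherin had a log2 ratio of -2.27, with its 5 spots between -2.39 and -2.12. The fitted difference was -2.55, since the fit removes a dye term estimated from the paired arrays. P-cadherin read -3.29 on the array, with 4 spots between -3.34 and -3.19, and -3.73 in the fit. Both cadherins were thus low in every spot of this array. For P-cadherin the dye term of 0.44 was larger than that of 96.1% of features, and it rests on siHMGA2, where the paired arrays differed by 1.74, rather than on HMGA2, where they differed by 0.0044.

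Basonuclin read -4.03 on the siEGFP array, with spots at -4.90, -4.81, -3.80 and -2.63, and -4.33 in the fit. Its spots differed more here than those of any other member on any array (SD 1.06), yet all 4 were below 0. WT1 read -1.36 on the array and -1.41 in the fit. Its 5 spots lay close together, between -1.43 and -1.27. Mesothelin read -1.91 on the array and -1.98 in the fit, and DOC-2 read -0.75 on the array and -0.74 in the fit.

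E-cadherin, P-cadherin, mesothelin and Basonuclin passed as lower under all 18 processing alternatives. WT1 passed under 16 of them, missing at -0.86 with arrays scaled to one spread and at -0.98 with the authors' deposited ratios. DOC-2 passed under 1, the authors' deposited ratios, at -1.15.

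**Figure D2:**
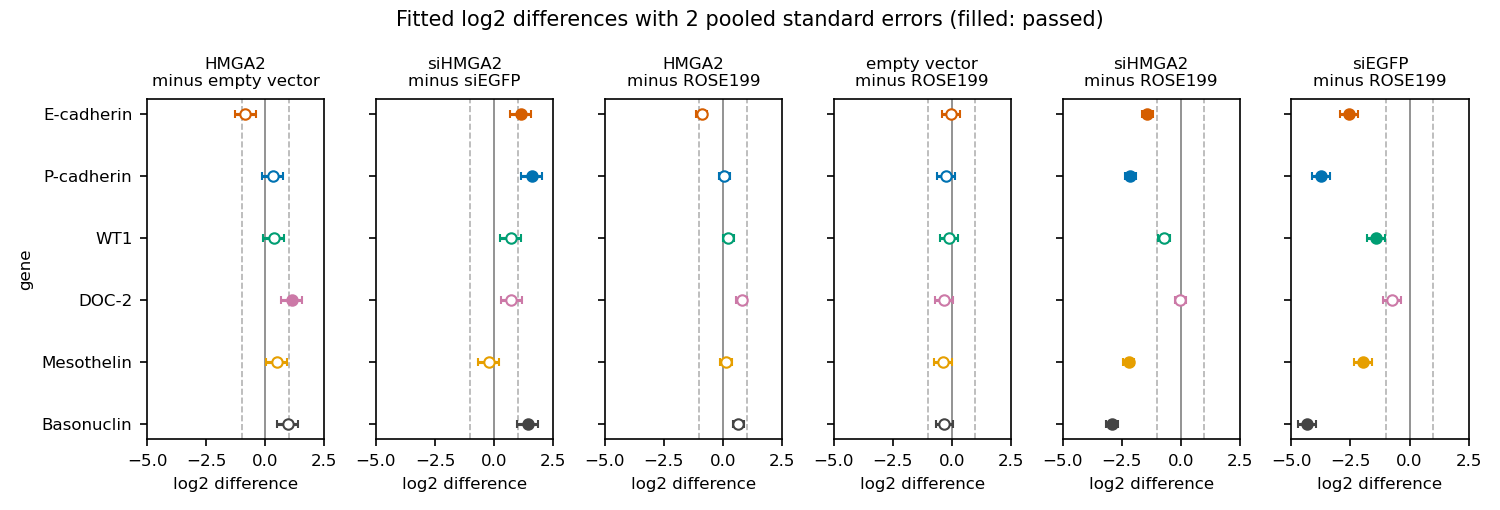
Fitted log2 differences (horizontal axis) of the 6 genes (rows) in the 6 comparisons (panels), with bars of 2 pooled standard errors and dashed lines at the minimum size of 1; filled points passed. All 6 genes lie below 0 for siEGFP minus ROSE199, and 3 points are filled for siHMGA2 minus siEGFP against 1 for HMGA2 minus empty vector.

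ROSEA25 cells with siRNA against HMGA2 were also below ROSE199 for both cadherins, mesothelin and Basonuclin, which all fell. These 4 of 6 members stand beside 10.3% of all features lower and 8.68% higher in siHMGA2-treated ROSEA25 cells. The members' median was -1.78, against -0.03 over all features, and the pooled standard error was 0.12. Basonuclin was 7.47-fold lower, mesothelin 4.59-fold, P-cadherin 4.38-fold and E-cadherin 2.67-fold. The first 3 passed under all 18 alternatives. E-cadherin passed under 15, missing at -0.97 without background correction, -0.96 with Cy5 arrays only and -0.80 with the authors' deposited ratios. WT1 at -0.71 and DOC-2 at -0.01 did not pass.

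The siHMGA2 arrays differed from each other more for the cadherins than for most features. E-cadherin read -0.96 on replicate 1 and -1.88 on replicate 2, and P-cadherin read -1.26 and -3.00. The P-cadherin gap of 1.74 exceeded that of 98.1% of features, and the E-cadherin gap of 0.93 exceeded that of 91.3%. Basonuclin read -2.41 and -3.39, a gap larger than for 92.3% of features. In all 3 genes replicate 1 was the less negative array. Mesothelin, at -2.09 and -2.31, WT1, at -0.54 and -0.88, and DOC-2, at -0.19 and 0.17, had gaps between 0.22 and 0.36.

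Within siHMGA2 replicate 1 the ratio varied with the brightness of the spot. P-cadherin spots with net ROSE199 signals of 572, 1389, 1865 and 3282 had log2 ratios of -0.82, -0.94, -1.25 and -2.04, so the brightest spot was the lowest. On replicate 2, where the P-cadherin spots had ROSE199 signals between 4522 and 8126, all 4 lay between -3.20 and -2.88. E-cadherin on replicate 2 had 3 acceptable spots, of which those with ROSE199 signals of 1492 and 1370 read -2.41 and -2.29, and the one with a signal of 277 read -0.95. The part of spot brightness in these differences was not tested beyond the values that use only the brighter spots, which are given with the comparison of siHMGA2 with siEGFP.

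**Figure D3:**
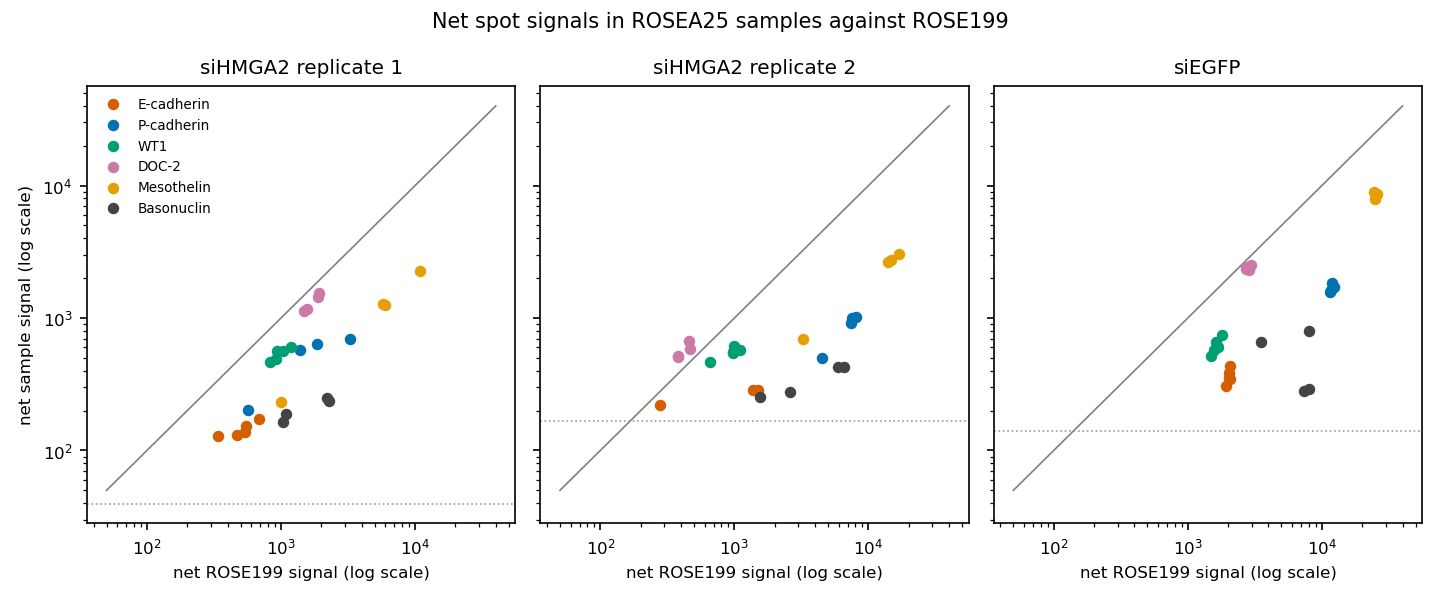
Net signal of each used spot in the ROSEA25 sample channel (vertical, log scale) against the ROSE199 channel (horizontal, log scale) on the siHMGA2 and siEGFP arrays, in intensity units; the diagonal is equal signal and the dotted line is the blank limit of the sample channel. P-cadherin spots had ROSE199 signals of 572 to 3282 on siHMGA2 replicate 1, against 4522 to 8126 on replicate 2, and lie nearer the diagonal on replicate 1.

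In ROSEA25 cells with siHMGA2, 3 of the 6 genes rose relative to siEGFP by the rule above: P-cadherin 3.03-fold, Basonuclin 2.69-fold and E-cadherin 2.19-fold. By the same rule 8.68% of all features were higher and 2.25% lower. The members' median difference was 0.93, against 0.03 over all features. Against ROSE199 the siHMGA2 values of these 3 genes were still negative, at -2.13, -2.90 and -1.42 on the log2 scale. The siEGFP array enters this comparison and that of siEGFP with ROSE199 with opposite signs, so an error of that array moves both.

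P-cadherin had log2 ratios of -1.26 and -3.00 on the siHMGA2 arrays and -3.29 on the siEGFP array, and Basonuclin -2.41 and -3.39 on the siHMGA2 arrays and -4.03 on the siEGFP array. For both, each siHMGA2 array was above the siEGFP array. The fitted differences were 1.60 and 1.43, with a pooled standard error of 0.22. E-cadherin, at -0.96 and -1.88 on the siHMGA2 arrays and -2.27 on the siEGFP array, had a fitted difference of 1.13. The 3 results rest on siHMGA2 replicate 1. Without that array P-cadherin was at 0.30, E-cadherin at 0.58 and Basonuclin at 0.84, none of which passed.

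The paired arrays allow an error for each gene from its own single residual. That standard error was 1.15 for P-cadherin, so its difference of 1.60 was under 2 of its own standard errors, and its residual was larger than that of 99.0% of features. E-cadherin (0.48) and Basonuclin (0.51) had differences over 2 of their own standard errors. With 1 residual per gene these errors are themselves imprecise.

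WT1 read -0.54 and -0.88 on the siHMGA2 arrays and -1.36 on the siEGFP array, and its fitted difference of 0.71 did not reach the minimum size. DOC-2 read -0.19 and 0.17 on the siHMGA2 arrays and -0.75 on the siEGFP array, with a fitted difference of 0.73. It was the one member to pass without siHMGA2 replicate 1, at 1.26. That setting leaves no Cy5 array of siHMGA2, so the sign requirement could not be applied there. Mesothelin read -2.09 and -2.31 on the siHMGA2 arrays and -1.91 on the siEGFP array, and its difference was -0.22. It was thus the only member whose fitted value was not above siEGFP, although it was 0.70 with the authors' deposited ratios.

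Over the 18 alternatives P-cadherin passed as higher in 15, Basonuclin in 14 and E-cadherin in 9. Some of these settings reduce to the same estimate, siHMGA2 replicate 1 minus siEGFP. They are Cy5 arrays only, a dye term per day, and leaving out either HMGA2 array or siHMGA2 replicate 2. Each gives 2.03 for P-cadherin, 1.62 for Basonuclin and 1.32 for E-cadherin, so they are not separate checks. No member passed with arrays centred on housekeeping features or scaled to one spread. With only the brighter spots of each gene, a setting chosen after seeing the data, P-cadherin was at 1.29 and Basonuclin at 1.28, which passed, and E-cadherin at 0.77, which did not.

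**Figure D4:**
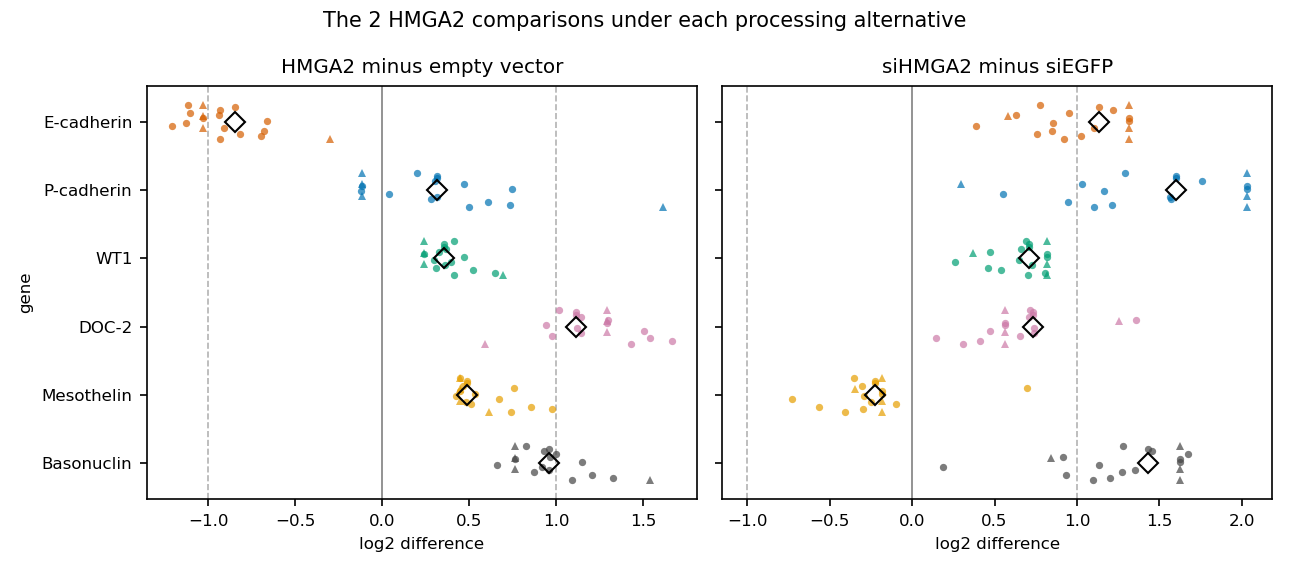
Fitted log2 differences (horizontal axis) of the 6 genes (vertical axis) under each of 18 processing alternatives (points; triangles leave out 1 array) and as reported (diamonds), for HMGA2 minus empty vector and siHMGA2 minus siEGFP, with dashed lines at the minimum size of 1. P-cadherin in siHMGA2 minus siEGFP spans 0.30 to 2.03, and E-cadherin in HMGA2 minus empty vector spans -1.21 to -0.30 without crossing 0.

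In ROSE199 cells carrying HMGA2, DOC-2 rose 2.17-fold relative to the empty vector and no other member passed. DOC-2 was thus 1 of 6 members called higher, where 4.5% of all features were higher and 3.22% lower. The members' median was 0.42, against 0.0025 over all features. E-cadherin had a difference of -0.85 and Basonuclin of 0.96, both near the minimum size, and the pooled standard error was 0.22.

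DOC-2 had log2 ratios of 0.96 and 0.62 on the HMGA2 arrays and -0.33 on the empty-vector array, with a fitted difference of 1.12. Both HMGA2 arrays were above the empty vector, and its 4 spots spanned 0.90 to 1.06 on HMGA2 replicate 1 and 0.58 to 0.64 on replicate 2. On the empty-vector array its brightest spot (net sample signal 5034) read -0.19. The other spots there, with signals of 318 to 496, read -0.41 to -0.34. DOC-2 passed in 15 of 18 alternatives. Among these, Cy5 arrays only and leaving out HMGA2 replicate 2 or either siHMGA2 array give the same value, 1.29. That value is HMGA2 replicate 1 minus the empty-vector array. DOC-2 was below the minimum size without HMGA2 replicate 1 (0.59), without background correction (0.98) and with a dye term for each quantification day (0.94).

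E-cadherin had log2 ratios of -0.80 and -0.99 on the HMGA2 arrays and 0.23 on the empty-vector array. Both HMGA2 arrays were below the empty vector and also below ROSE199. On HMGA2 replicate 1, its dimmest spots read -0.05 and -0.38 while the 3 brighter spots lay between -1.20 and -1.18. E-cadherin was lower under all 18 alternatives, between -1.21 and -0.30, and passed in 8. One of these was the use of only the brighter spots, at -1.12. Others were Cy5 arrays only and leaving out HMGA2 replicate 2 or either siHMGA2 array. Those all reduce to HMGA2 replicate 1 minus the empty-vector array, at -1.03, and are not separate checks. The value of -0.30 came without HMGA2 replicate 1, where the dye term rests on the siHMGA2 arrays alone.

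Basonuclin had log2 ratios of 0.75 and 0.54 on the HMGA2 arrays and -0.02 on the empty-vector array. It passed in 5 of 18 alternatives, with a range of 0.66 to 1.54. P-cadherin had 0.07 and 0.06 on the HMGA2 arrays and 0.18 on the empty-vector array, which do not differ beyond the error. Its fitted difference of 0.32 is positive only through the dye term: it was -0.12 in the arrays with the sample in Cy5 alone, and 1.62 without HMGA2 replicate 1. WT1 had 0.18 and 0.28 on the HMGA2 arrays and -0.07 on the empty-vector array, with a difference of 0.36. Mesothelin had 0.15 and 0.10 on the HMGA2 arrays and -0.30 on the empty-vector array, with a difference of 0.49. Neither passed under any of the 18 alternatives.

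Set against ROSE199, no member passed in HMGA2 cells, where 4.5% of features were higher and 2.25% lower, nor in empty-vector cells, where 1.29% were higher and 1.61% lower. The members' median was 0.18 with HMGA2 and -0.28 with the empty vector. Among them E-cadherin had the most negative value with HMGA2, -0.90, and DOC-2 the most positive, 0.79. In empty-vector cells the 6 values lay between -0.36 and -0.05, each within 2 pooled standard errors of ROSE199.

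The cadherins, whose genes lie side by side, read differently on the arrays of ROSE199 cells with HMGA2. The E-cadherin log2 ratio minus that of P-cadherin was -0.87 and -1.06 on the HMGA2 arrays and 0.05 on the empty-vector array. The fitted difference between the groups was -1.16, with a pooled standard error of 0.32 for 2 features. It stayed negative under all 18 alternatives, between -1.91 and -0.91. The pooled error takes both genes as average features. Their own standard errors for HMGA2 minus empty vector were larger, 0.48 for E-cadherin and 1.15 for P-cadherin. An own error of the difference between the 2 genes was not computed, so its size beside that error was not tested. In ROSEA25 cells E-cadherin was the less reduced of the pair on every array, by 0.31 and 1.12 with siHMGA2 and by 1.02 with siEGFP. The siHMGA2 minus siEGFP difference of this measure was -0.46, within 2 standard errors, and ranged from -0.81 to 0.29. E-cadherin was also nearer the blank limit there. Its sample signal was 3.63 and 1.58 times that limit with siHMGA2 and 2.59 times with siEGFP. For P-cadherin it was 13.3, 5.13 and 11.9 times. The part of low signal in the smaller E-cadherin reduction was not tested. A feature's probe was compared only with itself across samples here, so these values are unequal ratios and not unequal abundance.

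**Figure D5:**
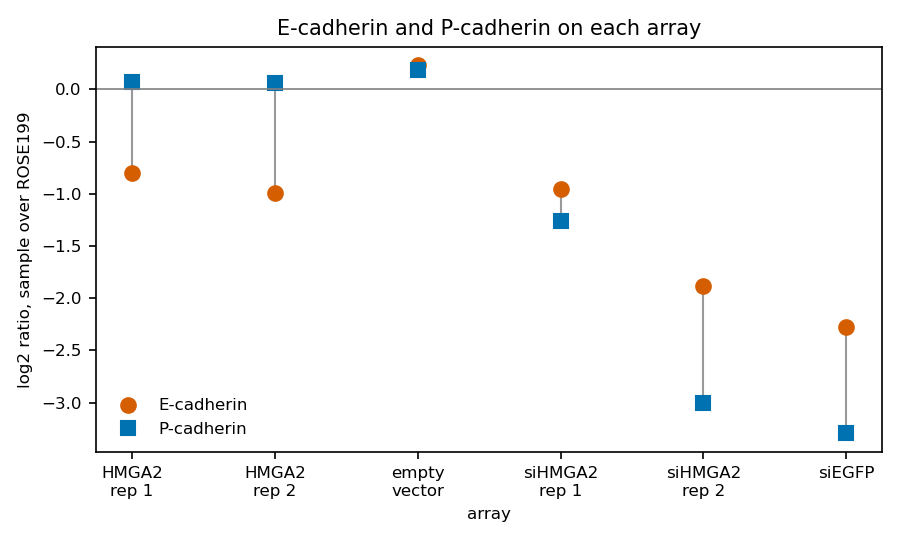
Log2 ratio, sample over ROSE199 (vertical axis), of E-cadherin (circles) and P-cadherin (squares) on each array (horizontal axis), joined by a line. E-cadherin lies below P-cadherin on both HMGA2 arrays, by 0.87 and 1.06, and above it on the 3 ROSEA25 arrays, by 0.31 to 1.12.

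Over the 4 groups and ROSE199, the order of levels differed between the genes. P-cadherin, WT1 and Basonuclin ran from HMGA2 cells at the top through ROSE199, the empty vector and siHMGA2 to siEGFP at the bottom. For P-cadherin and WT1 the top 3 were not separated by 2 pooled standard errors between neighbours, and for Basonuclin HMGA2 cells were separated from ROSE199 by 0.64. E-cadherin had ROSE199 and the empty vector at the top, not separated, then HMGA2 cells, siHMGA2 and siEGFP, each separated from the one above it by the pooled error of the fitted values. On single arrays E-cadherin in siHMGA2 replicate 1 (-0.96) lay between the HMGA2 arrays (-0.80 and -0.99), so that step rests on siHMGA2 replicate 2, and the empty-vector to HMGA2 step of 0.85 was under 2 of the gene's own standard errors (0.48). DOC-2 had HMGA2 cells at the top, separated by 0.79 from ROSE199, and no neighbours below were separated. Levels further apart were: siEGFP minus ROSE199 was -0.74 and siHMGA2 minus siEGFP 0.73, both over 2 pooled standard errors. Both were under 2 of the gene's own standard errors (0.39 and 0.46). Mesothelin had siHMGA2 at the bottom, not separated from siEGFP, and both were separated from the groups on the ROSE199 background. The whole range of fitted levels was 4.97 for Basonuclin, 3.79 for P-cadherin, 2.55 for E-cadherin, 2.33 for mesothelin, 1.65 for WT1 and 1.53 for DOC-2.

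Among the 291 other named features, those with the most similar levels over the 4 groups were found by the root mean square difference of the fitted log2 ratios. HTS1 was closest to E-cadherin (0.21), ahead of ETF and TGFBT2R. TSC36 was closest to P-cadherin (0.18), ahead of TRPM-2 and Par4. Single strand DNA binding protein was closest to WT1 (0.12), followed by Coxsackie and adenovirus receptor homolog and HPRT. MARCKS, ID4 and CMG1 were closest to DOC-2 (0.27 for the first), and Red-1, LOT1 and Steroid sensitive gene to mesothelin (0.40 for the first). For Basonuclin the closest were Follistatin related protein (0.56), P-cadherin (0.57) and TRPM-2 (0.57), which made P-cadherin the only member among the 3 nearest of another. These rankings describe 4 groups that share arrays and a common ROSE199 sample.

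The epithelial genes were set beside other adhesion and mesenchymal genes on the array. Of 12 junction and adhesion names 6 were present, and CD44, a receptor for hyaluronan, was the only one to pass in any comparison. CD44 was higher than in ROSE199 by 1.79 with siHMGA2 and by 2.78 with siEGFP, opposite in sign to the cadherins. Cx43, EGFR and Thy-1 did not exceed the blank limit in the siEGFP sample. The list's median was -0.32 for HMGA2 minus empty vector, against 0.0025 over all features.

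Of 16 mesenchymal and matrix names 12 were present. In siEGFP-treated ROSEA25 cells 6 of the 12 fell relative to ROSE199: Collagen alpha (-4.70), the smooth-muscle actin-binding protein SM22 (-4.55), Thrombospondin 1 (-3.77), the collagen-crosslinking enzyme Lox (-3.13), the TGF-beta receptor TGFBT2R (-2.27) and the tropomyosin TPM2 (-1.12). P9ka42a (1.99) and LOXRP (1.46) rose, and the other 4 (Fibrillin-1, Fibronectin, Osteonectin and PAI1) did not pass. Over all features 15.4% were lower and 11.3% higher in that comparison. With siHMGA2, 5 of the 12 rose relative to siEGFP and none fell: SM22 (1.75), Collagen alpha (1.36), TGFBT2R (1.36), P9ka42a (1.32) and Thrombospondin 1 (1.13). Calls over all features were also mostly higher here, 8.68% against 2.25% lower. That balance turned to 17 features higher and 19 lower with housekeeping centring. In siHMGA2-treated ROSEA25 cells 5 of the 12 were below ROSE199 by the rule and 2 above, beside 10.3% and 8.68% of all features. In HMGA2 cells Collagen alpha fell relative to the empty vector (-1.44) and no other of the 12 passed, where 3.22% of all features were lower and 4.5% higher. Against ROSE199, 3 of the 12 fell in HMGA2 cells and 3 in empty-vector cells, beside 2.25% and 1.61% of all features.

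Markers of other cells a culture could hold were read in the same way. All 4 fibroblast names (Thy-1, Collagen alpha, Fibrillin-1 and Lox) were on the array, with a median of -0.07 for HMGA2 minus empty vector. Thy-1 and Fibrillin-1 did not exceed the blank limit in the siEGFP sample, so no median is given against siEGFP. Collagen alpha and Lox both fell in siEGFP-treated cells relative to ROSE199, and of these Collagen alpha alone passed for siHMGA2 minus siEGFP and for HMGA2 minus empty vector. Both smooth-muscle names, SM22 and TPM2, fell in siEGFP-treated cells relative to ROSE199 (median -2.84), and with siHMGA2 relative to siEGFP SM22 rose while TPM2 was at -0.53 and did not pass. The part of other cells in the members' values was not tested, and fewer cells of a type and less RNA per cell cannot be told apart in bulk RNA.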

How the data were processed

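RNA levels came from spotted 2-colour arrays of rat probes. Per the file headers, each deposited quantification file (header version 5) gives each spot's mean signal intensity and median local background in both channels, and 1760 spots make an array, 37 of them blank and 325 of beta actin. The authors deposited, in addition, a table of log2 ratios. Their direction, sample over ROSE199, was read from the correlation with the spot ratios (0.841 to 0.948 per array), its column medians run from -0.10 to 0.20, and how it was centred is unknown here. It served as an alternative.

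Poor spots (21 to 64 per array) were left out. Intensities were background-corrected by normexp (offset 50) and centred by loess per array (span 0.3, 4 iterations, blank and beta actin spots without weight) in R 4.3.3 with limma 3.58.1. Spots of a name were averaged into 311 features, 18 of them unnamed clones. A least-squares fit gave every feature 4 group values and a dye effect over the 6 arrays. The 1 residual per feature was pooled as a scaled median absolute residual (SD 0.169, root mean square 0.229), which rests on the paired arrays and gave standard errors of 0.22, 0.19 and 0.12. The number of arrays limits the precision, and the spread between cultures was not measured.

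Of 18 alternatives (other centrings, background corrections, dye terms, spot summaries and leaving out each paired array), 17 were planned and 1, the brighter spots, was added after seeing the data. Within a comparison some of them reduce to the same estimate, so a count of alternatives passed is not a count of separate checks. Where an alternative left a group without a Cy5 array, the rule was applied without its sign requirement. The members, the junction and mesenchymal lists and the cell type markers were chosen with earlier results of these data known. Named genes were the 6 members, the 3 nearest features of each, list genes that passed, HMGI-C and K-ras. List genes that did not pass (such as Cx43, EGFR, Thy-1, Fibrillin-1) are named for completeness, chosen after their values were seen. Housekeeping fragments in a separate subgrid were not analysed here.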

Additional observations from a re-analysis of the deposited data

Results flagged for a closer look

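WT1, DOC-2 and Basonuclin differed in sign between the lines when cells with more HMGA2 were set against cells with less, on both paired arrays of each line after removal of the dye term. WT1 was at 0.36 for HMGA2 minus empty vector in ROSE199, which is within 2 pooled standard errors of 0, and at -0.71 for siEGFP minus siHMGA2 in ROSEA25. DOC-2 was at 1.12 in ROSE199 and at -0.73 in ROSEA25. Basonuclin was at 0.96 in ROSE199 and at -1.43 in ROSEA25. These differences between the lines were not tested, and in each line 1 array stands for the control. The paired-array values of a line share that control and the dye term, so they are not separate checks. Of the ROSE199 values only that of DOC-2 passed the rule, and of the ROSEA25 values only that of Basonuclin. For each gene 1 of the 2 values was under 2 of its own standard errors. These were WT1 in ROSE199 (0.30), DOC-2 in ROSEA25 (0.46) and Basonuclin in ROSE199 (0.51), with the own standard error in brackets. The fitted values of P-cadherin also differed in sign, 0.32 in ROSE199 and -1.60 in ROSEA25. After removal of the dye term its ROSE199 values were -0.12 and 0.75. The HMGA2 arrays themselves read alike, at 0.07 and 0.06 against untreated ROSE199. That split comes from the dye term of 0.44, which rests on the siHMGA2 arrays, where the pair differed by 1.74. E-cadherin (-0.85 in ROSE199 and -1.13 in ROSEA25) and mesothelin (0.49 in ROSE199 and 0.22 in ROSEA25) had the same sign in both lines.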

How the results depend on the processing

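Of the members' 648 values under the 18 alternatives, 24 no longer passed the rule, 23 passed it newly and the others kept their side of it. The sign changed in 22, of which 0 passed in either setting. The count of members that passed for HMGA2 minus empty vector was 1 as reported, 0 without background correction, and 2 with arrays centred on the median, on beta actin or on housekeeping features, scaled to one spread, with no dye term, with Cy5 arrays only, with the median of spots and with only the brighter spots. Leaving out 1 array gave 2 in each case: P-cadherin and Basonuclin without HMGA2 replicate 1, and E-cadherin and DOC-2 without any other. Without HMGA2 replicate 1 no Cy5 array of HMGA2 is left, so the sign requirement could not be applied. The members' median (0.42) was 0.62 with median centring, 0.86 with beta actin, 0.73 with housekeeping features, 0.64 with a dye term per day, 0.61 with the deposited ratios and 0.35 to 0.65 when 1 array was left out.

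For siHMGA2 minus siEGFP the count of 3 was 0 with housekeeping centring and with scaling, and 1 to 3 when 1 array was left out. It was 2 in settings that include median centring, no background correction and no dye term, where E-cadherin was at 0.92, 0.85 and 0.85. The 1 was DOC-2, without siHMGA2 replicate 1. The median (0.93) was 0.65 with housekeeping centring, 0.75 without background correction, 0.33 with scaling, 0.74 with the brighter spots and 0.48 to 1.07 when 1 array was left out. For siEGFP minus ROSE199 the median (-2.26) was -2.03 with housekeeping centring, -1.87 without background correction, -1.38 with scaling, -2.09 with no dye term and with Cy5 arrays only, and -2.07 with the deposited ratios. For siHMGA2 minus ROSE199 (-1.78) it was -1.99 with beta actin, -1.41 without background correction, -1.49 with scaling, -1.11 with Cy5 arrays only, -1.38 with the deposited ratios, -2.01 with the brighter spots and -2.03 to -1.16 when 1 array was left out. For HMGA2 minus ROSE199 the count of 0 was 1 with beta actin, the median of spots and the brighter spots and 0 to 2 when 1 array was left out, and the median (0.18) was 0.50 with beta actin and 0.024 to 0.45. For empty vector minus ROSE199 the median (-0.28) was -0.040 with no dye term and with Cy5 arrays only and -0.32 to -0.065 when 1 array was left out. The cause of these shifts was not tested.

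Beta actin centring moved the median of all features to 0.20 for HMGA2 minus empty vector and -0.28 for siEGFP minus ROSE199, and housekeeping centring moved it to -0.21 for siHMGA2 minus siEGFP. Calls over all features for siHMGA2 minus siEGFP were 27 higher and 7 lower as reported, 17 and 19 with housekeeping centring and 25 and 16 with median centring. For HMGA2 minus empty vector they were 14 and 10 as reported, 32 and 7 with beta actin and 24 and 7 with housekeeping centring. For siEGFP minus ROSE199 they were 35 and 48 as reported and 56 and 46 with housekeeping centring.

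No paired analysis was possible because the replicate numbers follow accession order and each control group has 1 array. Signal over background limited E-cadherin and Basonuclin most, and culture-to-culture variation was not measured.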
